A study of Mus musculus with 16 samples.

Results

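Motile cilium genes are the genes whose products build, drive or switch on the beating cilium of ependymal cells and other multiciliated cells. A list of 48 gene names was looked up in a table of RNA-Seq counts from the CD11b+ fraction of mouse brain, and a name was kept when its row had more than 10 counts in at least 4 of the 16 libraries. The table held 43 of the 48 names, and all 43 were kept, out of 14565 genes that passed the same filter and 24421 rows in all. Dnai1, Dnai2 and Cfap65 had rows under their older symbols Dnaic1, Dnaic2 and Ccdc108 and are given separately below, while Dnah12 and Cfap54 were not analysed here.

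The series compared female C57BL/6J mice in 3 groups after weaning. CON mice (4 libraries) ate standard chow, MAL mice (5 libraries) ate an isocaloric diet low in protein and fat for a month, and MAL-BG mice (7 libraries) ate the MAL diet and were gavaged repeatedly with a cocktail of Escherichia coli and Bacteroidales isolates. CON and MAL mice received buffer by the same route, so gavage itself was shared by all groups, and no group combined the bacteria with standard chow. Microglia and other myeloid cells carry CD11b on their surface, and CD11b+ cells were enriched with magnetic beads after enzymatic dissociation of brain, which the labels name as cortical tissue and the study's methods as whole cerebra. Library totals were 10312703 to 13461574 counts in CON, 10864121 to 12819982 in MAL and 14191791 to 18705202 in MAL-BG, the deepest group. The libraries are numbered within a group as in the deposited table.

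Motile cilia of the ventricle wall stand on ependymal cells, and epithelial cells of the choroid plexus also carry tufts of cilia with an axoneme. The axoneme is a ring of doublet microtubules around a central pair of microtubules. Outer and inner dynein arms on each doublet are the motors that slide neighbouring doublets, radial spokes and the nexin-dynein regulatory complex pass signals to these motors, and a ruler made of Ccdc39 and Ccdc40 sets their spacing. Foxj1 is the forkhead transcription factor that switches on this gene set in multiciliated cells, and factors of the RFX family bind X-box elements in promoters of many cilium genes. Microglia, the cells the fraction was enriched for, are not known to carry motile cilia.

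Promoter sequences were searched for motifs of RFX and forkhead factors, and each motif was found in a minority of the genes. RefSeq promoter windows on GRCm38.p6, from 250 bases before to 50 bases after a start, were matched by symbol for 36 of the 43 genes (40 windows). The RFX core GTTGCC was found on either strand in 13 of the 36 genes (36.1%), against 14.1% of all 27025 genes with a window. A full X-box, written as GTTNCC, 0 to 3 further bases and GGNAAC, was found in 2 of the 36 genes (5.56%) against 0.94% of all. The forkhead core GTAAACA was found in 3 of the 36 genes, Ak7, Cfap43 and Mlf1 (8.33%), against 4.05% of all. The RFX core can be a part of a full X-box, as in Pifo. The stretches below lie before the start that RefSeq gives for the window, run 5′ to 3′ on the strand of the gene, and have every match to these motifs in capitals. This start need not be the outer end of the gene. By the RefSeq extent of the whole gene, the stretches of Pifo, Ccdc151, Cfap44 and Tekt1 lie inside it, and those of Hydin and Spag16 in part. Pifo (chr3:106001498-106001537, minus strand) and Ccdc151 (chr9:22002635-22002688, minus strand) are shown because they hold the full X-box. Cfap44 (chr16:44394760-44394798, plus strand) and Hydin (chr8:110266944-110266976, plus strand) are shown as the genes with the lowest log2 fold changes, Cfap44 against CON and Hydin against MAL. Tekt1 (chr11:72361892-72361937, minus strand) and Spag16 (chr1:69826839-69826884, plus strand) hold a core on each strand, and Mlf1 (chr3:67373972-67374017, plus strand) holds an RFX core beside a forkhead core.
Pifo: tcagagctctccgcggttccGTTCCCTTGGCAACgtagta
Ccdc151: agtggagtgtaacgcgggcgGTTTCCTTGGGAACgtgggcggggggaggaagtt
Cfap44: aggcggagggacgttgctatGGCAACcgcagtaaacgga
Hydin: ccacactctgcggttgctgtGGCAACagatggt
Tekt1: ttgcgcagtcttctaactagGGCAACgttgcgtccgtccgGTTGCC
Spag16: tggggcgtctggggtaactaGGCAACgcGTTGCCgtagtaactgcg
Mlf1: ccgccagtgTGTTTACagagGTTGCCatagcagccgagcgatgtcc
In Ccdc113, Cfap46, Dnah10 and Drc1 the RFX core also lay before the start, and in Spef2, Tekt4 and Zmynd10 it lay after it. A match is a description of these letters and not evidence of binding.

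Nearly the whole axoneme gene set was lower in MAL-BG than in either other group. Against CON, 42 of the 43 genes fell and 0 rose, where 21.7% of all 14565 genes tested fell and 11.4% rose, and the median log2 fold change of the 43 genes was -2.16 against -0.04 for all genes. Against MAL, 40 of the 43 fell and 0 rose, where 20.2% of all genes fell and 10.2% rose, with a median of -1.90 against -0.03 for all genes. The log2 fold changes against CON ran from -3.74 for Cfap44, a tether of the inner dynein arm, to -0.75 for Tppp3, a tubulin-binding protein of ciliated cells. A gene was said to fall when its p from the quasi-likelihood test of edgeR, adjusted by Benjamini-Hochberg over the 14565 genes, was under 0.05 and its log2 fold change was below -0.58. Armc4, Dnaaf1, Lrrc6 and Tekt4 passed the filter on low counts only through CON and MAL libraries, where they were higher. The filter itself thus favoured a difference in these genes, and their calls are not counted as support. Of the other 39 genes, 38 fell against CON (median -2.15) and 36 against MAL (median -1.87). Both comparisons share the MAL-BG libraries. The counts by role and by list below are to be read beside the same shares of all genes, 21.7% against CON and 20.2% against MAL. CON and MAL had 0 calls among the 43 genes and 0 among all genes (0.0% in each direction). In bulk RNA, fewer cells of a type and less RNA per cell cannot be told apart.

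**Figure D1:**
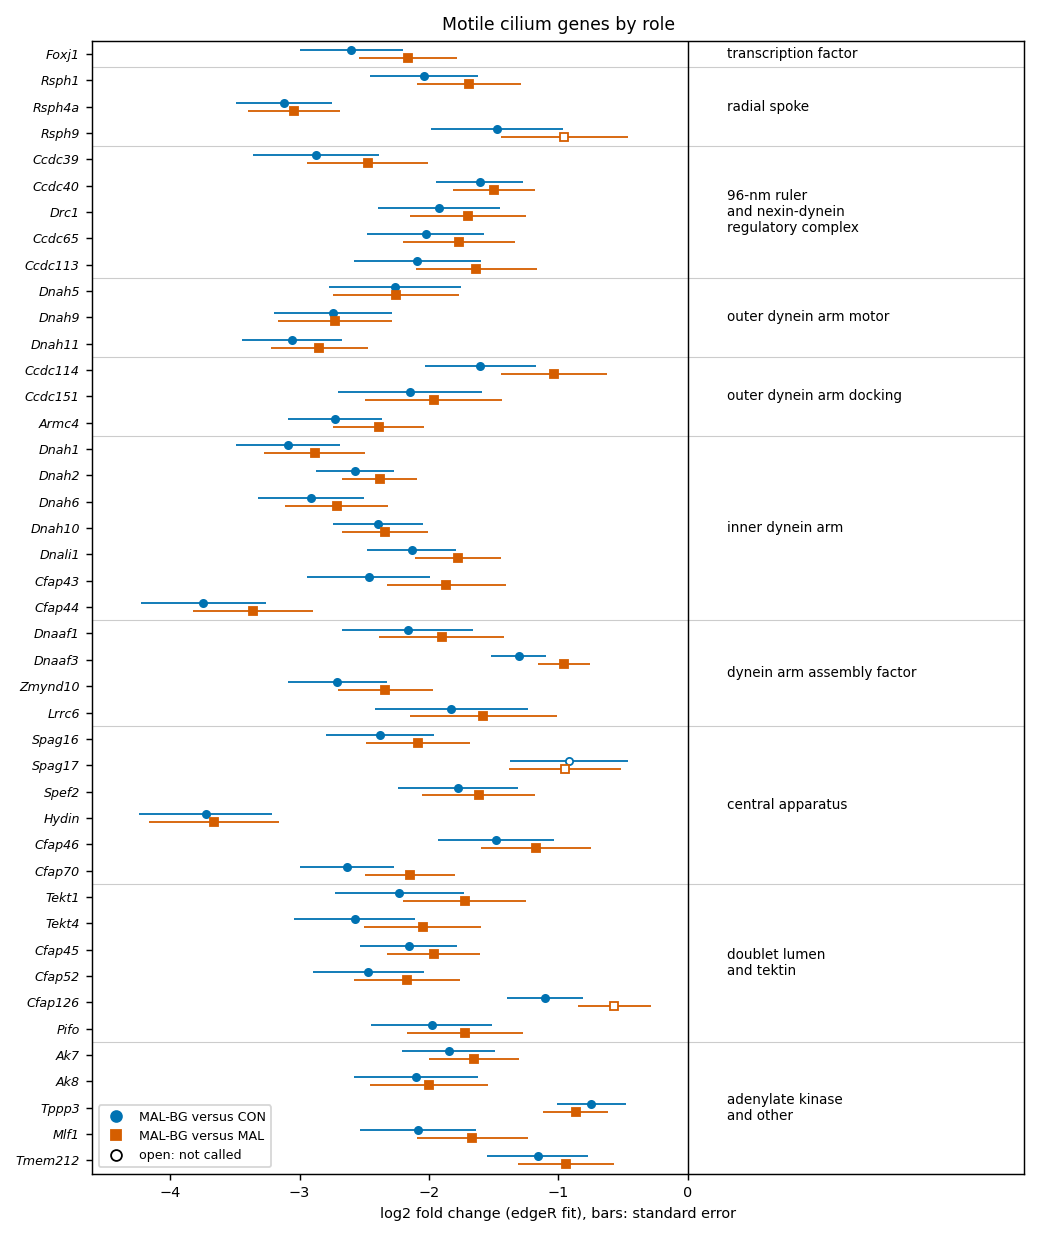
Log2 fold change of each of the 43 genes, grouped by role, with CON (circles) or MAL (squares) as the reference of MAL-BG, with standard errors as bars and open symbols for genes that were not called. All 43 values lie below 0 in both comparisons, between -3.74 and -0.75 against CON.

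All 7 MAL-BG libraries lay below all 4 CON libraries in 26 of the 43 genes, where this held for 11.1% of all genes tested. They lay below all 5 MAL libraries in 11 genes (8.95% of all genes) and below all 9 CON and MAL libraries in 10 (6.36% of all genes), namely Rsph4a, Ccdc40, Dnah11, Armc4, Dnah1, Dnah2, Dnah10, Cfap44, Zmynd10 and Hydin. Without Armc4, Dnaaf1, Lrrc6 and Tekt4 these counts were 23, 10 and 9 of 39. MAL-BG replicate 3 was high and MAL replicate 4 low in the sum over the set. The 43 genes summed to 332 CPM in MAL-BG replicate 3, against 102.5 to 150.1 CPM in the other 6 MAL-BG libraries, and to 224 CPM in MAL replicate 4, against 433 to 819.8 CPM in the other 4. Without MAL-BG replicate 3, 26 of the 43 genes lay below all 9 libraries (9.82% of all genes), and with MAL replicate 4 also left out, 36 did (13.3% of all genes). Leaving out MAL-BG replicate 3 took the called genes to 43 of 43 in both comparisons, and moved the fold change by more than 1.5 times in Dnah9 (-3.33, adjusted p = 8.04e-06 against CON) and Lrrc6 (-2.42, adjusted p = 0.00161 against CON).

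Foxj1 (chr11:116330704-116335499 on GRCm38.p6, the build of all coordinates here), the transcription factor of the motile cilium program, had the highest level of the set per length of exon, with 31.2 CPM per kb in CON. It was at 56.9, 113, 64.3 and 92.97 CPM in CON, at 37.8, 99.4, 84.1, 19.1 and 61.4 CPM in MAL, and between 8.96 and 31.7 CPM (median 10.8) in the MAL-BG libraries. Every MAL-BG value was under every CON value, and MAL replicate 4 was under MAL-BG replicate 3. Foxj1 changed by -2.60 (SE 0.40, adjusted p = 0.000133) against CON and -2.16 (SE 0.38, adjusted p = 0.000370) against MAL on the log2 scale. CPM are counts scaled to a common library size with edgeR's TMM factors.

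Radial spokes reach from each doublet toward the central pair. Rsph1 (chr17:31255019-31277296), a protein of the spoke head, was at 17.3, 43.02, 29.5 and 37.4 CPM in CON, at 15.5, 42.8, 34.05, 6.12 and 26.6 CPM in MAL, and between 4.55 and 16.9 CPM (median 6.83) in the MAL-BG libraries. MAL-BG replicate 3 came close to the lowest CON library without reaching it, while MAL replicates 1 and 4 lay within the MAL-BG range. Its log2 fold change was -2.04 (SE 0.42, adjusted p = 0.00110) against CON and -1.69 (SE 0.40, adjusted p = 0.00300) against MAL. Rsph9 (chr17:46122038-46144242), another protein of the spoke head, was at 12.4, 50.8, 25.2 and 25.04 CPM in CON, at 10.2, 31.5, 28.6, 5.799 and 22.4 CPM in MAL, and between 2.14 and 22.9 CPM (median 9.31) in the MAL-BG libraries. CON replicate 2 stood above the other CON libraries, and MAL-BG replicates 3 and 4 lay above CON replicate 1. Its log2 fold change was -1.48 (SE 0.51, adjusted p = 0.0268) against CON and -0.95 (SE 0.49, adjusted p = 0.121) against MAL, so Rsph9 was called against CON only. Against MAL it was called without MAL replicate 4 (adjusted p = 0.0498), without MAL-BG replicate 3 (adjusted p = 0.0333) and with offsets for length and GC content (-1.23, adjusted p = 0.0466). Without CON replicate 2 the call against CON was lost (-1.04, adjusted p = 0.145), as it was without MAL-BG replicate 2 (adjusted p = 0.0529). Rsph4a, the third spoke head gene, had 11.3 to 19.1 CPM in CON, 7.25 to 22.8 in MAL and 0.891 to 4.13 in MAL-BG, with a log2 fold change of -3.12 (SE 0.37, adjusted p = 1.89e-05) against CON. The fall of Rsph4a was the steepest of these 3 genes in both comparisons.

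**Figure D2:**
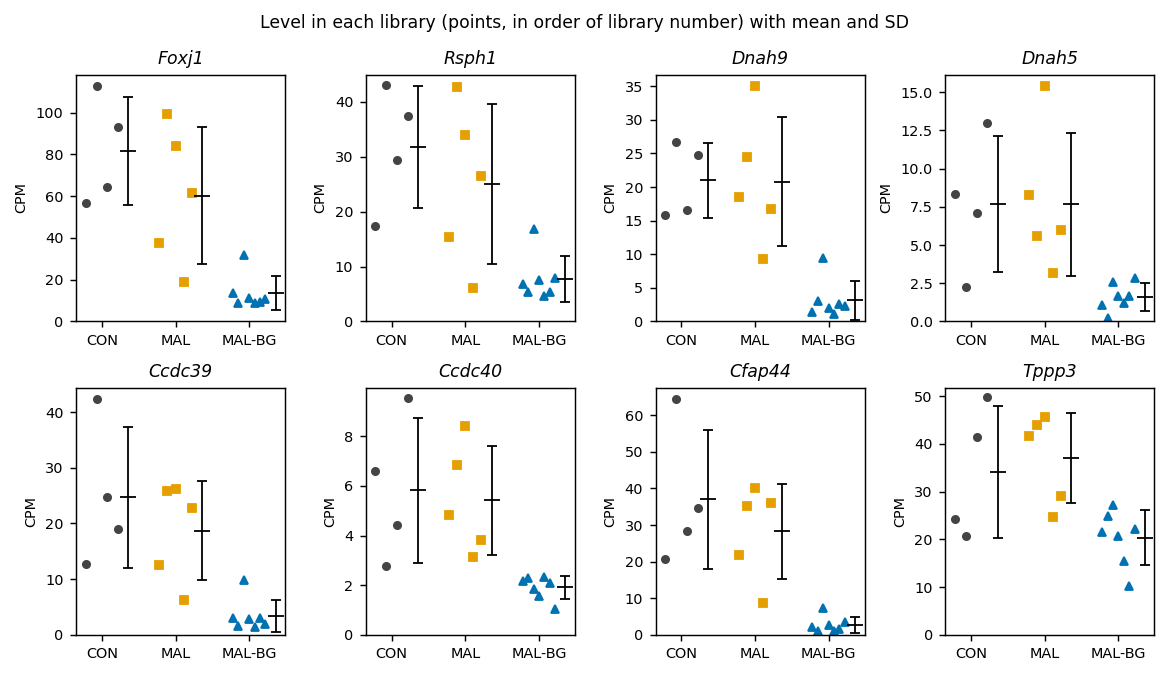
CPM of Foxj1, Rsph1, Dnah9, Dnah5, Ccdc39, Ccdc40, Cfap44 and Tppp3 in each library (points; 4 of CON, 5 of MAL, 7 of MAL-BG), with the mean and SD of the group as a bar. The third MAL-BG point stands above the other MAL-BG points for Foxj1 (31.7 CPM), Rsph1, Dnah9, Ccdc39 and Cfap44 but not for Ccdc40, and the second CON point is the lowest CON point for Dnah5, Ccdc40 and Tppp3.

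Genes of the ruler and the nexin-dynein regulatory complex fell together, 5 of 5 in each comparison. Ccdc39 (chr3:33810757-33844325), a partner in the ruler, was at 12.7, 42.3, 24.8 and 18.99 CPM in CON, at 12.5, 25.8, 26.1, 6.201 and 22.8 CPM in MAL, and between 1.41 and 9.78 CPM (median 2.801) in the MAL-BG libraries. All MAL-BG libraries were below all CON libraries, and MAL replicate 4 was below MAL-BG replicate 3. On the log2 scale Ccdc39 changed by -2.87 (SE 0.49, adjusted p = 0.000271) against CON and -2.47 (SE 0.47, adjusted p = 0.000623) against MAL. Its partner Ccdc40 was at 6.599, 2.78, 4.41 and 9.53 CPM in CON, at 4.85, 6.86, 8.43, 3.14 and 3.82 CPM in MAL, and between 1.04 and 2.33 CPM (median 2.08) in the MAL-BG libraries. Here no MAL-BG library reached any CON or MAL library, although CON replicate 2 lay lowest of the CON libraries. Ccdc40 had a log2 fold change of -1.61 (SE 0.33, adjusted p = 0.00115) against CON and -1.50 (SE 0.32, adjusted p = 0.00140) against MAL. Ccdc113 (chr8:95534060-95558888), a coiled-coil protein of the doublet, was at 5.91, 15.5, 12.8 and 13.4 CPM in CON, at 5.36, 15.2, 11.01, 2.25 and 9.55 CPM in MAL, and between 0.919 and 6.68 CPM (median 2.303) in the MAL-BG libraries. Only MAL-BG replicate 3 exceeded a CON library, CON replicate 1. Ccdc113 changed by -2.09 (SE 0.49, adjusted p = 0.00270) against CON and -1.63 (SE 0.47, adjusted p = 0.00977) against MAL on the log2 scale. Drc1 and Ccdc65, subunits of the regulatory complex, had log2 fold changes of -1.92 and -2.02 against CON and of -1.70 and -1.77 against MAL. Drc1 ranged from 6.37 to 10.1 CPM in CON, from 2.34 to 10.3 in MAL and from 0.593 to 5.51 in MAL-BG. Ccdc65 ranged from 2.92 to 7.64 CPM in CON, from 1.45 to 6.34 in MAL and from 0.596 to 3.17 in MAL-BG.

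Heavy chains of the outer dynein arm, the motor that sets beat frequency, fell in 3 of 3 genes. Dnah9 (chr11:65831324-66168581) was at 15.9, 26.7, 16.5 and 24.8 CPM in CON, at 18.6, 24.4, 35, 9.26 and 16.8 CPM in MAL, and between 1.084 and 9.51 CPM (median 2.37) in the MAL-BG libraries. MAL-BG replicate 3 lay just above MAL replicate 4 and below all other CON and MAL libraries. Its log2 fold change was -2.74 (SE 0.46, adjusted p = 0.000244) against CON and -2.73 (SE 0.44, adjusted p = 0.000195) against MAL. Dnah11 (chr12:117877982-118199043) was at 11.8, 24.9, 15.04 and 18.7 CPM in CON, at 12.8, 18.04, 26.5, 5.15 and 13.4 CPM in MAL, and between 1.43 and 5.03 CPM (median 1.66) in the MAL-BG libraries. All 7 MAL-BG libraries were below all 9 others, and the log2 fold change was -3.06 (SE 0.39, adjusted p = 3.30e-05) against CON and -2.85 (SE 0.38, adjusted p = 4.62e-05) against MAL. Dnah5, the remaining heavy chain, was at 8.36, 2.23, 7.09 and 13.01 CPM in CON, at 8.25, 5.59, 15.4, 3.14 and 5.97 CPM in MAL, and between 0.230 and 2.82 CPM (median 1.66) in the MAL-BG libraries. CON replicate 2 lay below MAL-BG replicates 3 and 7, while the other CON libraries lay above all MAL-BG libraries. Its log2 fold change was -2.26 (SE 0.51, adjusted p = 0.00208) against CON and -2.26 (SE 0.49, adjusted p = 0.00165) against MAL. The intermediate chains of the same arm, under the older symbols Dnaic1 and Dnaic2, had log2 fold changes of -2.22 (SE 0.42, adjusted p = 0.000654) and -2.24 (SE 0.36, adjusted p = 0.000202) against CON.

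Docking proteins anchor the outer arm to the doublet, and 3 of 3 fell in each comparison. Ccdc114 (chr7:45923159-45948963) was at 13.6, 37.9, 17.01 and 18.1 CPM in CON, at 7.06, 20.6, 20.9, 4.27 and 20.1 CPM in MAL, and between 4.34 and 16.3 CPM (median 5.896) in the MAL-BG libraries. CON replicate 2 stood above and MAL-BG replicate 3 lay within the CON range. It had a log2 fold change of -1.60 (SE 0.43, adjusted p = 0.00646) against CON and -1.04 (SE 0.41, adjusted p = 0.0491) against MAL. The call against MAL was lost when any of 11 of the 16 libraries was left out (adjusted p from 0.0557 to 0.128), and under 5 other settings, namely DESeq2 size factors, no filter on low counts, the compared groups only, thinned libraries, and offsets for length and GC content (adjusted p from 0.0507 to 0.0673). Ccdc151 (chr9:21989871-22002972) was at 2.92, 5.47, 4.96 and 6.203 CPM in CON, at 2.55, 7.46, 5.59, 0.886 and 5.01 CPM in MAL, and between 0.325 and 3.17 CPM (median 0.707) in the MAL-BG libraries. MAL-BG replicate 3 lay above CON replicate 1 and above MAL replicates 1 and 4. The log2 fold change of Ccdc151 was -2.15 (SE 0.55, adjusted p = 0.00504) against CON and -1.96 (SE 0.53, adjusted p = 0.00692) against MAL. Armc4 had 0.238 to 0.827 CPM in the 7 MAL-BG libraries and 1.45 to 5.45 CPM in the 9 others, with a log2 fold change of -2.73 against CON. Armc4 passed the filter only through CON and MAL libraries, where it was higher, so this is a description. The role therefore rests on Ccdc114 and Ccdc151, and against MAL the call of Ccdc114 was often lost, as given above.

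Inner dynein arms shape the bend of the cilium, and 7 of 7 genes of this role fell in each comparison, with a median log2 fold change of -2.57 against CON. Dnah6 (chr6:73017603-73222227), a heavy chain, was at 31.9, 57.5, 38.8 and 49.4 CPM in CON, at 30.2, 40.4, 65.2, 11.8 and 45.6 CPM in MAL, and between 2.71 and 14.1 CPM (median 5.82) in the MAL-BG libraries. Every MAL-BG library was below every CON library, and MAL replicate 4 was below MAL-BG replicate 3. On the log2 scale Dnah6 changed by -2.91 (SE 0.41, adjusted p = 7.59e-05) against CON and -2.71 (SE 0.40, adjusted p = 9.60e-05) against MAL. Cfap44 (chr16:44394742-44482694), which tethers an inner arm to the doublet, was at 20.7, 64.3, 28.5 and 34.6 CPM in CON, at 21.7, 35.3, 40.1, 8.698 and 36.05 CPM in MAL, and between 1.07 and 7.37 CPM (median 2.12) in the MAL-BG libraries. No MAL-BG library reached any of the 9 others, and CON replicate 2 was the highest of all 16. The log2 fold change of Cfap44 was -3.74 (SE 0.48, adjusted p = 3.60e-05) against CON and -3.36 (SE 0.46, adjusted p = 6.19e-05) against MAL. Cfap43, its partner in the tether, changed by -2.47 against CON and -1.87 against MAL. Cfap43 ranged from 10.7 to 39.3 CPM in CON, from 6.201 to 24.9 in MAL and from 1.72 to 11.99 in MAL-BG. The heavy chains Dnah1, Dnah2 and Dnah10 had all MAL-BG libraries below all 9 others. Dnah1 ranged from 5.099 to 12.4 CPM in CON, from 4.59 to 9.54 in MAL and from 0.178 to 1.72 in MAL-BG. Dnah2 ranged from 14.3 to 29.9 CPM in CON, from 8.62 to 24.2 in MAL and from 1.99 to 6.34 in MAL-BG. Dnah10 ranged from 4.54 to 20.1 CPM in CON, from 6.201 to 18.3 in MAL and from 1.68 to 3.86 in MAL-BG. These 3 changed by -3.09, -2.57 and -2.39 against CON and by -2.88, -2.38 and -2.34 against MAL. The light intermediate chain Dnali1 changed by -2.13 and -1.77. Dnali1 ranged from 10.4 to 16.4 CPM in CON, from 3.95 to 15.9 in MAL and from 2.22 to 6.82 in MAL-BG.

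Assembly factors build dynein arms in the cytoplasm before transport into the cilium, and 4 of 4 fell in each comparison. Dnaaf3 (chr7:4522933-4532488) was at 23.1, 24.5, 15.8 and 20.4 CPM in CON, at 13.4, 19.5, 22.2, 10.2 and 16.9 CPM in MAL, and between 6.16 and 10.9 CPM (median 7.78) in the MAL-BG libraries. Its MAL-BG libraries lay below all CON libraries, MAL replicate 4 lay within their range, and MAL-BG replicate 3, high for most of the set, was not high for Dnaaf3. On the log2 scale Dnaaf3 changed by -1.31 (SE 0.21, adjusted p = 0.000208) against CON and -0.96 (SE 0.20, adjusted p = 0.00141) against MAL. Zmynd10 (chr9:107546872-107551321) was at 5.602, 9.64, 10 and 10.1 CPM in CON, at 3.23, 10.4, 10.5, 2.74 and 7.32 CPM in MAL, and between 0.536 and 2.34 CPM (median 1.25) in the MAL-BG libraries. All MAL-BG libraries lay below all 9 others, and the log2 fold change was -2.71 (SE 0.38, adjusted p = 7.29e-05) against CON and -2.34 (SE 0.37, adjusted p = 0.000158) against MAL. Dnaaf1 and Lrrc6 were near the detection limit in MAL-BG, at 0.108 to 1.17 CPM and 0 to 1.58 CPM, with log2 fold changes of -2.16 and -1.83 against CON. Both passed the filter only through CON and MAL libraries, where they were higher, so these values are a description and the role rests on Dnaaf3 and Zmynd10. The call of Lrrc6 was lost without CON replicate 2 (adjusted p = 0.0503) or CON replicate 4 (adjusted p = 0.0728), and against MAL without any of 7 libraries (adjusted p from 0.0523 to 0.0721).

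Projections of the central pair steer the beat, and this role was the most uneven of the set, with log2 fold changes from -3.73 to -0.92 against CON. Spef2 (chr15:9578193-9748868) was at 7.597, 20.03, 10.2 and 12.6 CPM in CON, at 5.7, 15.2, 18.7, 3.54 and 13.3 CPM in MAL, and between 1.52 and 9.44 CPM (median 2.91) in the MAL-BG libraries. MAL-BG replicate 3 lay above CON replicate 1, and the others lay below all CON libraries. It changed by -1.77 (SE 0.46, adjusted p = 0.00526) against CON and -1.62 (SE 0.44, adjusted p = 0.00719) against MAL. Spag16 (chr1:69826872-70725132) was at 6.29, 21.8, 11.3 and 14.3 CPM in CON, at 6.12, 14.7, 15.7, 4.83 and 13.4 CPM in MAL, and between 1.15 and 6.13 CPM (median 2.08) in the MAL-BG libraries. The MAL-BG libraries lay below all CON libraries, MAL-BG replicate 3 by a small margin. The log2 fold change of Spag16 was -2.38 (SE 0.42, adjusted p = 0.000365) against CON and -2.09 (SE 0.40, adjusted p = 0.000710) against MAL. Spag17 (chr3:99885417-100143322) was at 4.45, 1.76, 2.84 and 7.04 CPM in CON, at 4.76, 4.55, 6.02, 2.01 and 3.26 CPM in MAL, and between 0.596 and 4.13 CPM (median 2.002) in the MAL-BG libraries. The groups overlapped, with CON replicate 2 below 4 of the 7 MAL-BG libraries, and the log2 fold change was -0.92 (SE 0.46, adjusted p = 0.110) against CON and -0.95 (SE 0.43, adjusted p = 0.0826) against MAL, so Spag17 passed neither test. Without MAL-BG replicate 3 it was called in both (-1.16, adjusted p = 0.0419 against CON, and -1.19, adjusted p = 0.0301 against MAL), and without MAL replicate 4 it was called against MAL (adjusted p = 0.0468). Hydin, a giant protein of the same projections, was at 10.9, 6.86, 7.798 and 20.5 CPM in CON, at 7.06, 12.4, 20.3, 4.83 and 10.4 CPM in MAL, and between 0.124 and 2.34 CPM (median 0.705) in the MAL-BG libraries. No MAL-BG library reached any other, and the log2 fold change was -3.73 (SE 0.51, adjusted p = 6.35e-05) against CON and -3.66 (SE 0.50, adjusted p = 5.78e-05) against MAL. Cfap70 and Cfap46, further proteins of the central apparatus, changed by -2.63 and -1.48 against CON and by -2.14 and -1.18 against MAL. Cfap70 ranged from 5.45 to 11.1 CPM in CON, from 2.25 to 8.28 in MAL and from 0.685 to 2.55 in MAL-BG. Cfap46 ranged from 5.38 to 15.7 CPM in CON, from 3.54 to 13.4 in MAL and from 1.41 to 8.89 in MAL-BG. The call of Cfap46 was lost without CON replicate 4 (adjusted p = 0.0512) and, against MAL, without any of 7 libraries (adjusted p from 0.0511 to 0.0988).

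Proteins inside the doublet wall and tektins, which stiffen it, fell in 6 of 6 genes against CON and 5 of 6 against MAL. Cfap126 (chr1:171113912-171126956) was at 10.7, 20.9, 15.8 and 20.5 CPM in CON, at 7.57, 15.4, 14.96, 8.46 and 12.2 CPM in MAL, and between 4.61 and 14.5 CPM (median 8.27) in the MAL-BG libraries. MAL-BG replicate 3 lay above CON replicate 1 and the groups overlapped. Its log2 fold change was -1.10 (SE 0.30, adjusted p = 0.00637) against CON and -0.57 (SE 0.28, adjusted p = 0.110) against MAL, past the test against CON only. Without MAL-BG replicate 3 it was also called against MAL (-0.78, adjusted p = 0.0177). Tekt1 (chr11:72344717-72362442) was at 10.3, 24.8, 14.4 and 16.9 CPM in CON, at 8.42, 16.3, 16.4, 3.71 and 13.6 CPM in MAL, and between 1.01 and 10.3 CPM (median 2.67) in the MAL-BG libraries. MAL-BG replicate 3 stood near CON replicate 1, and the others lay at 3.61 CPM or below. Tekt1 changed by -2.23 (SE 0.50, adjusted p = 0.00193) against CON and -1.73 (SE 0.47, adjusted p = 0.00778) against MAL. Tekt4, Cfap45, Cfap52 and Pifo changed by -2.57, -2.16, -2.47 and -1.98 against CON and by -2.05, -1.97, -2.17 and -1.72 against MAL. Cfap45 ranged from 6.93 to 10.8 CPM in CON, from 2.25 to 12 in MAL and from 1.19 to 4.13 in MAL-BG. Cfap52 ranged from 9.75 to 20.2 CPM in CON, from 3.95 to 19.4 in MAL and from 1.07 to 6.54 in MAL-BG. Tekt4 passed the filter only through CON and MAL libraries and was near the detection limit in MAL-BG. Its values are a description, and the role rests on the other genes. Tekt4 ranged from 1.53 to 2.599 CPM in CON, from 0.564 to 2.92 in MAL and from 0.163 to 0.895 in MAL-BG. Pifo ranged from 2.69 to 10.3 CPM in CON, from 2.09 to 9.2 in MAL and from 0.534 to 3.995 in MAL-BG.

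Of the remaining genes, 5 of 5 fell in each comparison. Tppp3 (chr8:105467492-105471422) was at 24.3, 20.7, 41.4 and 49.8 CPM in CON, at 41.6, 43.98, 45.7, 24.7 and 29.1 CPM in MAL, and between 10.2 and 27.2 CPM (median 21.6) in the MAL-BG libraries. CON replicates 1 and 2 lay within the MAL-BG range. Its log2 fold change, -0.75 (SE 0.27, adjusted p = 0.0309) against CON and -0.87 (SE 0.25, adjusted p = 0.0105) against MAL, was the smallest of the set against CON, and this call was lost without CON replicate 3 or 4 or without MAL-BG replicate 4 or 7 (adjusted p from 0.0512 to 0.163). Ak7 (chr12:105703858-105782447), an adenylate kinase of the axoneme, was at 14.1, 13.7, 11.2 and 24.4 CPM in CON, at 15.4, 15.7, 22.4, 5.48 and 10.3 CPM in MAL, and between 2.65 and 8.54 CPM (median 3.52) in the MAL-BG libraries. The MAL-BG libraries lay below all CON libraries, and MAL replicate 4 lay within their range. The log2 fold change of Ak7 was -1.85 (SE 0.36, adjusted p = 0.000788) against CON and -1.65 (SE 0.35, adjusted p = 0.00131) against MAL. Tmem212, a membrane protein gene of ependyma, was at 9.82, 3.25, 6.695 and 16.6 CPM in CON, at 8.25, 9.39, 11.3, 4.51 and 5.81 CPM in MAL, and between 2.197 and 6.89 CPM (median 3.55) in the MAL-BG libraries. CON replicate 2 lay below 4 of the 7 MAL-BG libraries. Tmem212 changed by -1.16 (SE 0.39, adjusted p = 0.0234) against CON and -0.94 (SE 0.37, adjusted p = 0.0483) against MAL. Without CON replicate 4 this was lost against CON (-0.69, adjusted p = 0.176), and without any of 12 libraries against MAL (adjusted p from 0.0508 to 0.133). Ak8, another adenylate kinase, and Mlf1 changed by -2.10 and -2.08 against CON and by -2.002 and -1.67 against MAL. Ak8 ranged from 2.61 to 5.37 CPM in CON, from 1.21 to 5.44 in MAL and from 0.230 to 2.48 in MAL-BG. Mlf1 ranged from 7.75 to 17.4 CPM in CON, from 2.82 to 15.7 in MAL and from 1.46 to 7.92 in MAL-BG. Ccdc108, the older symbol of Cfap65, had a log2 fold change of -2.75 (SE 0.43, adjusted p = 0.000150) against CON.

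Levels compared per length of exon put Foxj1 (31.2 CPM per kb in CON), Rsph1 (23.2), Tppp3 (18.4), Rsph9 (17.7) and Tmem212 (12.7) first. Spag17 (0.474), Dnah5 (0.491) and Dnah1 (0.595) came last. Of the 43 genes, 41 had more than 10 counts in all 9 CON and MAL libraries. In MAL-BG, 39 had more than 10 counts in at least 4 libraries, and the 4 named above did not. The exons of Cfap43 and Dnaaf3 overlap those of Itprip and Tnni3 on the same strand. Ccdc39, Cfap45, Dnaaf1, Dnah11, Dnali1 and Spag17 overlap exons of another gene of the table on the opposite strand, and since the strand option of the counting is not stated, values of these 8 genes carry that uncertainty.

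Between MAL and CON no gene of the set passed the test. The log2 fold changes of MAL versus CON ran from -0.60 to 0.12 with a median of -0.26, against -0.02 for all genes. By edgeR 0 of the 43 genes were called, 0 had an unadjusted p under 0.05, and DESeq2 also called 0, while 212 of all genes had an unadjusted p under 0.05 and 0 were called. Without MAL replicate 4, the library with the lowest levels, the median was -0.08.

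Although the set fell together in MAL-BG, the order of the CON libraries was not the same for all its genes. CON replicate 2 was below the other 3 CON libraries in 9 of the 43 genes, above them in 23, and among them in 11. The same shares over all genes tested were not computed, so these counts, and those of the marker lists below, are not read as particular to the set. The 9 were Ccdc40, Dnah5, Dnah1, Dnah10, Spag17, Hydin, Cfap46, Tppp3 and Tmem212. These subsets were defined from the values and are given as a description without a test. Partners in the same structure stood on both sides. Ccdc39 and Ccdc40 had 456 and 30 counts in CON replicate 2, a ratio of 15.2, against ratios of 1.93, 5.63 and 1.99 in the other CON libraries and 1.97 to 5.96 in MAL. The outer arm heavy chains Dnah9 and Dnah5 had 288 and 24 counts in CON replicate 2, a ratio of 12. This ratio was 1.90 to 2.33 in the other CON libraries and 2.25 to 4.37 in MAL. It was not the highest in CON replicate 2, as MAL-BG replicate 2 had a ratio of 13 from 39 and 3 counts. The inner arm heavy chains Dnah6 and Dnah10 had 620 and 49 counts in CON replicate 2, a ratio of 12.7. This ratio was 2.21 to 4.21 in the other CON libraries and 1.896 to 4.775 in MAL.

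Markers of other cell types also differed between CON replicate 2 and the other CON libraries. Ttr, the transthyretin gene that marks choroid plexus epithelium, was at 38580.2 CPM in CON replicate 2 and at 9922, 23695 and 20173 CPM in the other CON libraries. Ccdc153, taken from a list of ependyma genes, was at 6.58 CPM there and at 17.96, 14.3 and 32.98 CPM in the others. Whether Ccdc153 is itself a cilium gene was not tested, so it is not used as an independent marker of cell type. CON replicate 2 thus had the most Ttr and the least Ccdc153 of the CON group. Over the whole lists, CON replicate 2 was the highest CON library in 22 of 22 choroid plexus genes. Of 20 ependyma genes it was the lowest in 11, among them Nnat, Sntn and Gja1, the highest in 3, Mia, 1110017D15Rik and Dbi, and within the range of the others in 6. Over the 9 CON and MAL libraries, Ttr and Ccdc153 showed no detectable relation (Pearson r = 0.09, exact permutation p = 0.811, Spearman rho = -0.10, exact p = 0.81, and r = -0.40 without the 2 libraries farthest from the median).

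Across the 9 CON and MAL libraries, on log2(CPM + 0.5), 33 of the 43 genes had a larger Pearson r with Ttr than with Ccdc153, and 10 had a larger r with Ccdc153. The 10 were the 9 genes low in CON replicate 2 and Ak7. Both reference genes were chosen after the values were seen, with CON replicate 2 at opposite ends of them, so this division largely restates that of CON replicate 2 and is a description. Without that library, an alternative added after seeing the data, 31 genes had the larger r with Ttr and 12 with Ccdc153, the same 10 with Ccdc65 and Dnaaf3, and the median r was 0.88 with Ttr and 0.69 with Ccdc153. Mia, another gene of the ependyma list, had r = 0.96 with Ttr and r = 0.09 with Ccdc153 over the 9 libraries, so a large r with Ttr does not separate the cell types. All 43 genes and 2 reference genes in 2 sets of libraries made a family of 172 relations, and p values were adjusted over this family. The adjustment does not cover the choice of the 2 reference genes from the same values. The p values and counts that follow are therefore a description and not a test of cell type. With Ttr, 30 genes passed an adjusted p of 0.05 by Pearson and 13 of them also by Spearman. With Ccdc153, 10 passed by Pearson and 9 of these also by Spearman. Ccdc39 followed Ttr with Pearson r = 0.98 (exact permutation p = 5.51e-06, adjusted 0.000946) and Spearman rho = 0.98 (exact p = 4.96e-05, adjusted 0.00284), and r was 0.95 without the 2 libraries farthest from the median of Ttr, MAL replicates 1 and 4. Ccdc40 followed Ccdc153 with Pearson r = 0.95 (exact permutation p = 7.44e-05, adjusted 0.00142) and Spearman rho = 0.95 (exact p = 0.000353, adjusted 0.0101), and r was 0.89 without CON replicate 2 and MAL replicate 4, the farthest for Ccdc153. The crossed relations were weak, with r = -0.01 for Ccdc39 with Ccdc153 and r = 0.19 for Ccdc40 with Ttr. Foxj1 followed Ttr with Pearson r = 0.93 (exact permutation p = 0.000220, adjusted 0.00223) and Spearman rho = 0.90 (exact p = 0.00203, adjusted 0.0205), and r fell to 0.75 without MAL replicates 1 and 4. Tmem212 followed Ccdc153 with Pearson r = 0.99 (exact permutation p = 1.65e-05, adjusted 0.000946) and Spearman rho = 0.93 (exact p = 0.000750, adjusted 0.0129), and r was 0.97 without the 2 farthest. Hydin passed by Pearson only (r = 0.79, exact permutation p = 0.0128, adjusted 0.0459, rho = 0.80, exact p = 0.0138, adjusted 0.0766). The libraries of a relation share their depth and scaling, and the genes share the libraries. CON and MAL alone, with 4 and 5 libraries, were too few for a correlation within a group. Over the 7 MAL-BG libraries the median r was 0.70 with Ttr and 0.55 with Ccdc153, and 2 genes passed by both measures with Ttr and 1 with Ccdc153.

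**Figure D3:**
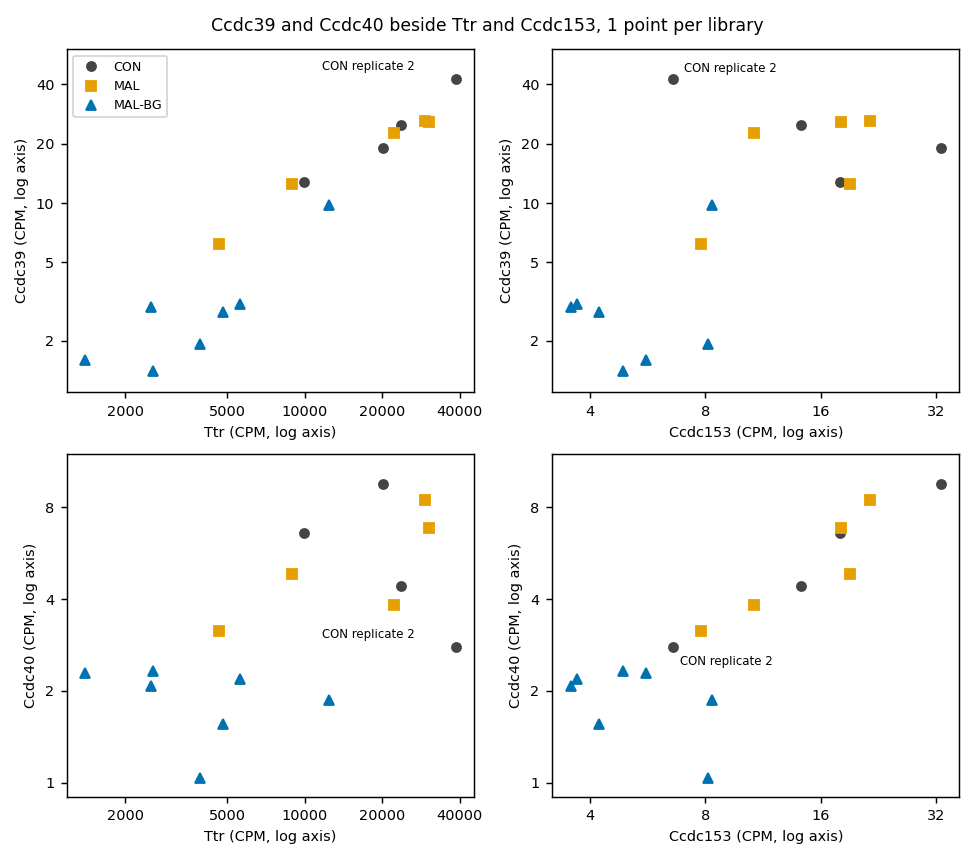
CPM of Ccdc39 (upper panels) and Ccdc40 (lower panels) against CPM of Ttr (left) and Ccdc153 (right), 1 point per library on log axes. Ccdc39 rises with Ttr (r = 0.98 over CON and MAL) and Ccdc40 with Ccdc153 (r = 0.95), and CON replicate 2 is at opposite ends of the 2 genes.

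**Figure D4:**
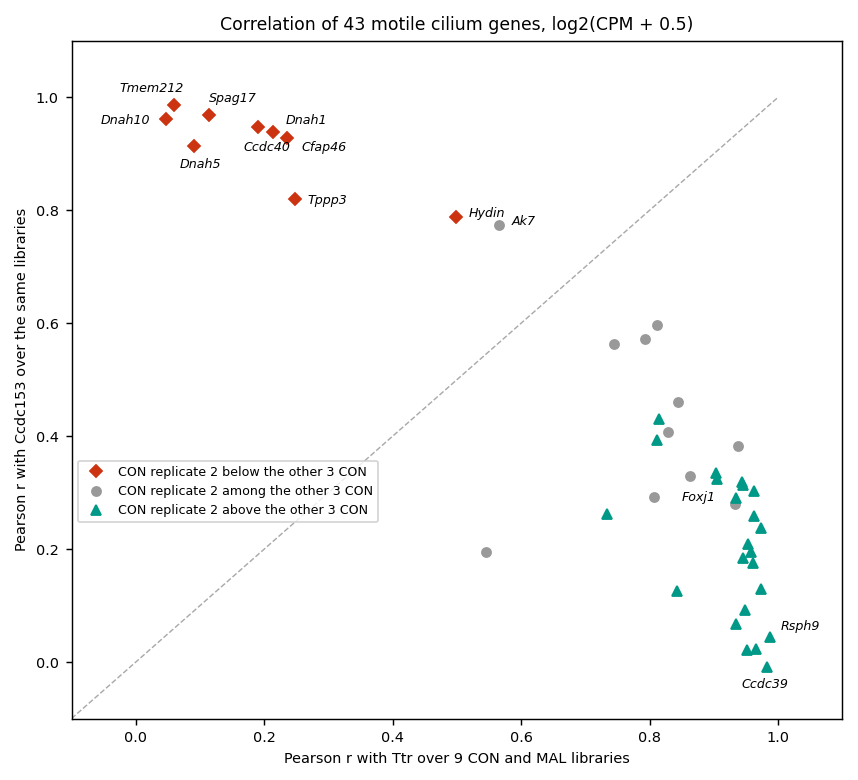
Pearson r of each of the 43 genes with Ttr (horizontal) and with Ccdc153 (vertical) over the 9 CON and MAL libraries, with symbols for the position of CON replicate 2 among the CON libraries. The 9 genes lowest in CON replicate 2 and Ak7 lie above the diagonal, and the other 33 genes lie below it.

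Markers of both cell types were present in the fraction, and which of them carried the RNA of the set cannot be told apart from these levels. All 22 genes of a choroid plexus list were detected and fell against CON (median log2 fold change -2.41), and 20 of 22 fell against MAL. Their summed level was 14546 to 56288 CPM in CON, 6784 to 44117 in MAL and 1891 to 17198 in MAL-BG. Among their 3 most abundant genes, Ttr changed by -2.28 (SE 0.55, adjusted p = 0.00315) against CON, Enpp2, the gene of autotaxin, by -2.56 (SE 0.56, adjusted p = 0.00173), and Kl, the gene of klotho, by -2.83 (SE 0.53, adjusted p = 0.000536). An ependyma list held 20 genes outside the set, and whether they are free of cilium genes was not tested. Of these 20 genes, 11 fell and 1, S100a6, rose against CON (median -1.32). Against MAL, 11 fell and 2, Tm4sf1 and Hdc, rose (median -0.99). Their 3 most abundant genes were mixed, with Tm4sf1 at 0.58 (SE 0.39, adjusted p = 0.240), Dbi at -0.96 (SE 0.24, adjusted p = 0.00389) and S100a6 at 0.99 (SE 0.38, adjusted p = 0.0424) against CON. Tm4sf1 is also known from endothelium and S100a6 from many cell types. Their summed level was 383 to 804 CPM in CON, 312 to 592 in MAL and 212 to 583 in MAL-BG. No gene of either list was at 0 in any group. The part of choroid plexus or ependymal cell numbers in the fall of the 43 genes was not tested.

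Marker lists of other cells differed in direction and size. Of all genes tested, 21.7% fell and 11.4% rose against CON. Of 14 microglia genes 9 rose and 0 fell against CON (median 0.77), and their summed level was 19054 to 30713 CPM in CON, 19577 to 33327 in MAL and 40651 to 55282 in MAL-BG. Cx3cr1, the fractalkine receptor gene, changed by 1.33 (SE 0.27, adjusted p = 0.00105) and Csf1r was at 0.37 (SE 0.26, adjusted p = 0.255), not called. Of 12 neuron genes 11 fell (median -2.75), and their summed level was 120.4 to 585 CPM in CON and 30.3 to 86.3 in MAL-BG. Camk2a, Snap25 and Map2 were at -4.28, -3.65 and -2.60 on the log2 scale. Of 11 astrocyte genes 6 fell (median -1.84), with the glutamate transporter gene Slc1a2 at -2.32, while Slc1a3 (-0.20) and S1pr1 (0.24) were not called. Of 9 neutrophil genes 8 rose (median 4.39), with S100a9 at 4.21 and S100a8 at 4.39, while Csf3r (-0.40) was not called. Their summed level was uneven in MAL-BG, at 570.7 to 13318.4 CPM, against 481 to 1215.1 CPM in CON. The MAL-BG median of this sum, 1062 CPM, lay within the CON range. Of 11 oligodendrocyte genes 3 rose and 1 fell (median 0.19), with Cnp at 0.19 and Mbp at 0.03, neither called. Of 10 endothelium genes 2 rose (median 0.29), with Cldn5 at 1.58, and with Flt1 at 0.13 and Slc2a1 at -0.12, neither called. The part of these cells in the fall of the 43 genes was not tested. Since CPM are shares of a library, a rise of some transcripts lowers the share of others, and this was not separated here.

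Regulators that start the multiciliated program were followed in a list of 17 genes, 13 of which passed the filter. Of these 7 fell against CON and 6 against MAL, and 0 rose (median log2 fold change -0.89 and -0.64). Gmnc, which commits cells to multiple cilia, was at 4.53, 44.9, 17.7 and 16.7 CPM in CON, at 10.1, 17.2, 19.8, 2.899 and 22.1 CPM in MAL, and between 0.766 and 5.99 CPM (median 2.003) in the MAL-BG libraries. MAL-BG replicate 3 lay above CON replicate 1 and MAL replicate 4, and the other MAL-BG libraries lay below all CON and MAL libraries. Gmnc changed by -3.21 (SE 0.58, adjusted p = 0.000435) against CON and -2.67 (SE 0.56, adjusted p = 0.00124) against MAL. Trp73, which acts with Gmnc, changed by -2.37 (SE 0.49, adjusted p = 0.00110) against CON. Among the RFX factors, Rfx2 changed by -1.98, Rfx3 by -0.89 and Rfx4 by -1.96, each called against CON, while Rfx1, which is widely transcribed, was at -0.06 (adjusted p = 0.758). Ift88, a transport protein of all cilia, changed by -1.21 and Ccdc78, which takes part in making basal bodies, by -1.13, the latter called against CON only. The 3 most abundant genes of the list, E2f4, Cep152 and Rfx1, are used by dividing or many other cells, and none was called against CON. E2f4 was at 0.34 (SE 0.12, adjusted p = 0.0244) and Cep152 at 0.14 (SE 0.21, adjusted p = 0.624). Mcidas had 0 counts in all 16 libraries.

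Other genes of the motile cilium were mostly lower too, with 47 of 49 below 0 against CON. Of 66 such names outside the set, 49 passed the filter, 41 fell against CON and 37 against MAL, and 0 rose, with medians of -1.64 and -1.47. Ropn1l (0.51 (SE 0.24, adjusted p = 0.0891)) and Dnaaf2 (0.03 (SE 0.22, adjusted p = 0.912)) were the 2 above 0 and were not called. Drc7, a subunit of the regulatory complex, changed by -2.80 (SE 0.54, adjusted p = 0.000663) and Cfap74, a protein of the central apparatus, by -1.50 (SE 0.24, adjusted p = 0.000197) against CON, while Cfap20, which is found in all cilia, was at -0.06 (SE 0.13, adjusted p = 0.711). Genes for transport and the transition zone of the primary cilium, the sensory cilium of most cells, had medians nearer to 0. Of 55 such genes 29 fell against CON and 26 against MAL, and 0 rose, with medians of -0.68 and -0.47. Ift172, a transport protein, changed by -0.79 (SE 0.11, adjusted p = 8.55e-05), while the kinesin genes Kif3b and Kif3a were at -0.42 (SE 0.11, adjusted p = 0.00692) and 0.21 (SE 0.19, adjusted p = 0.402), neither past both thresholds. The difference between the motile and the primary cilium list was not tested.

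Fold changes followed the length of the genes in part. Against CON, the median log2 fold change was -2.03 for the 12 genes of the set under 2 kb of exon, -2.15 for 10 genes of 2 to 4 kb, -2.38 for 9 genes of 4 to 8 kb, and -2.66 for 12 genes over 8 kb. The medians of all genes tested in the same classes were 0.17, 0.08, -0.07 and -0.30. Spearman's rho of log2 fold change with exonic length was -0.48 over the 43 genes and -0.21 over 14456 genes, given as a description across genes, which are not independent. Against MAL these were -0.56 and -0.24. Of the 12 genes over 8 kb, Hydin and Cfap44 had the lowest log2 fold changes of the set, while Dnah10 (-2.39) and Dnah5 (-2.26) lay near the median of the set and Spef2 (-1.77), Cfap46 (-1.48) and Spag17 (-0.92) lay above that of the shortest class. Rsph4a, of 3650 bases, was at -3.12. With offsets for length and GC content in the fit, 42 and 40 of the 43 genes were called against CON and MAL, and the median against CON was -2.30. The 40 genes called against MAL were not all the same, since Ccdc114 and Cfap46 lost their call and Rsph9 and Cfap126 gained it.

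**Figure D5:**
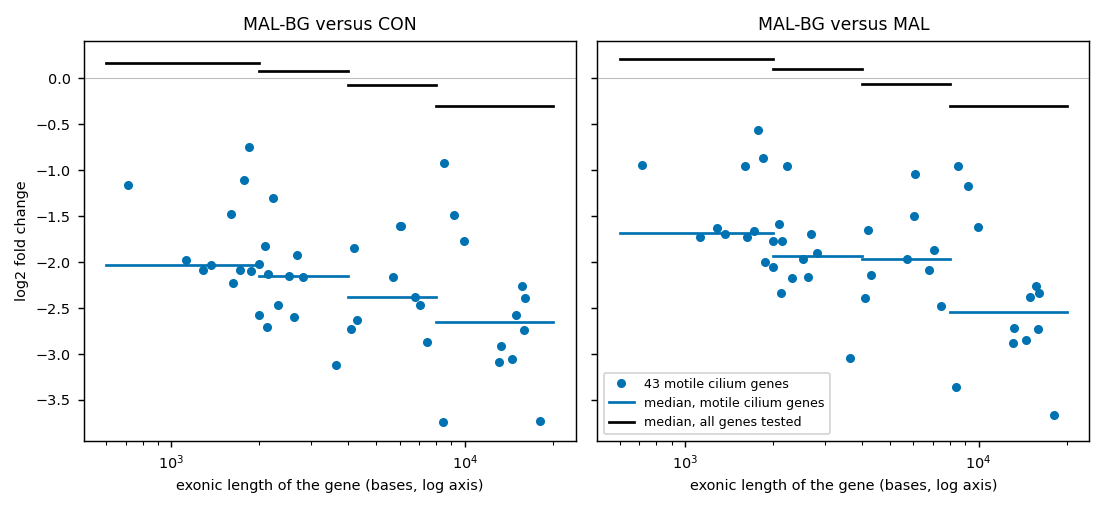
Log2 fold change of the 43 genes (points) against exonic length on a log axis, with CON or MAL as the reference of MAL-BG, with the medians of the set (blue lines) and of all genes tested (black lines) in 4 length classes. The median of the set falls from -2.03 to -2.66 from the shortest to the longest class against CON, and that of all genes from 0.17 to -0.30.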

How the data were processed

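RNA-Seq covered the CD11b+ fraction of 16 mice (CON 4, MAL 5, MAL-BG 7), with a library for each mouse. Paired reads of stranded poly(A) libraries were aligned by the authors to GRCm38.p6 with STAR and assigned to genes with HTSeq, and the deposited values are raw counts without normalization. Groups were taken from the column names, whose numbers match no sample title. Library totals are in the report. The 14565 genes above 10 counts in 4 or more libraries were fitted with edgeR 4.0.16 (TMM, quasi-likelihood, all groups in 1 fit, R 4.3.3), with p values adjusted over all genes. The authors' model had a batch term, but the batch of a library is not given in the sources used here, so none was fitted. Replicates differ in mouse, and p values measure the spread between libraries, in which mouse and batch are not separated. A difference of batch between the groups was not tested. Exonic lengths are from GENCODE, and coordinates and promoters from RefSeq (GRCm38.p6). Correlations used exact permutation tests (scipy 1.17.1). The fit was tested on simulated data.

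The genes, their roles and all lists were chosen with earlier results of these data known. Values per library were given for Foxj1, Rsph1, the 2 genes with the highest mean CPM in each role and genes not called in a MAL-BG comparison, and of other lists the 3 genes with the highest mean CPM were named, except for 2 genes that are not reported here. Ccdc40, Dnah5, Hydin, Tmem212, Gmnc and further genes were added after their values were seen. Alternatives were other scalings, DESeq2 1.42.0, other filters, no fold change threshold, the compared groups only, libraries thinned to 10312703 counts, offsets for length and GC content, and each library left out.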

Additional observations from a re-analysis of the deposited data

Results flagged for a closer look

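For 20 of the genes given per library, 60 groups of 4 to 7 libraries were examined. Ccdc40, Dnah5, Hydin, Tmem212 and Gmnc were not among these 20. A library was flagged when its gap to its neighbour took most of the range of its group. Chance gives this in about 1 of 20 groups, but the genes share the libraries, so the 60 groups are not independent. A library was flagged in 13 of the 60 groups, and in 12 of these it was MAL-BG replicate 3, as the highest of its group. Of the transcription factor, radial spoke, ruler and outer arm roles, 6 of the genes examined stood so in that library, with Foxj1 at 31.7 CPM against 8.96 to 13.6 CPM in the other 6, Rsph1 at 16.9 CPM against 4.55 to 7.93 CPM in the other 6, Ccdc39 at 9.78 CPM against 1.41 to 3.06 CPM in the other 6, Dnah9 at 9.51 CPM against 1.084 to 2.99 CPM in the other 6, Dnah11 at 5.03 CPM against 1.43 to 1.78 CPM in the other 6 and Ccdc114 at 16.3 CPM against 4.34 to 6.47 CPM in the other 6. The same was seen for 6 genes of the inner arm, central apparatus and doublet roles, with Dnah6 at 14.1 CPM against 2.71 to 6.04 CPM in the other 6, Cfap44 at 7.37 CPM against 1.07 to 3.48 CPM in the other 6, Spef2 at 9.44 CPM against 1.52 to 3.44 CPM in the other 6, Spag16 at 6.13 CPM against 1.15 to 2.52 CPM in the other 6, Cfap126 at 14.5 CPM against 4.61 to 8.71 CPM in the other 6 and Tekt1 at 10.3 CPM against 1.01 to 3.61 CPM in the other 6. In the same library Ttr was at 12394 CPM, against 1404 to 5579 CPM in the other 6. The remaining case was Zmynd10 in CON replicate 1, at 5.602 CPM against 9.64 to 10.1 CPM in the other 3 CON libraries.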

How the results depend on the processing

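The count of genes called was within 1.5 times of the reported one under all alternatives run. Against CON it was 42 of 43 under each other scaling, filter, tool and offset, and 38 to 43 with 1 library left out, the lowest without CON replicate 4. Against MAL it was 38 to 40 and, with 1 library left out, 36 to 43, and between MAL and CON it was 0 throughout. No single gene changed direction in a MAL-BG comparison. Of 1075 gene values under alternatives against CON, 10 lost and 2 gained their call, and against MAL 46 lost and 10 gained it. The call was the same under all alternatives in 37 of 43 genes against CON and in 36 against MAL. Leaving out CON replicate 2, MAL replicate 4 and MAL-BG replicate 3 together, which was chosen after seeing the data, gave 43 calls in each MAL-BG comparison, medians of -2.49 and -2.50 (log2), and -0.02 for MAL versus CON. No paired analysis was possible because the columns of the table carry running numbers that match no sample title. Genes under about 1 CPM in MAL-BG, such as Lrrc6 and Tekt4, rest on few counts there.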
